A study of Mus musculus with 36 samples.

Results

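The comparison described here is between induced regulatory T cells (iTreg) and non-pathogenic Th17 cells (Th17n) that received the vehicle and no inhibitor. Its members are the 6 libraries whose labels name iTreg or Th17n and Vehicle, 3 of each, out of 18 libraries in the series. Each library was sequenced in 2 runs, so 12 of the 36 deposited samples belong to it, and all 11526 genes that passed a filter on low counts were tested. Both groups began as naive CD4+ T cells sorted from spleens of wild-type C57BL/6 mice, stimulated on plates carrying antibodies to CD3 and CD28 (1 µg/ml of each) and collected after 68 h. The iTreg cultures held recombinant human TGF-beta 1 at 2 ng/ml as the only cytokine listed. The Th17n cultures held the same 2 ng/ml of TGF-beta 1 and, in addition, recombinant mouse IL-6 at 25 ng/ml, so the planned difference between the groups is the IL-6. Matching iTreg and Th17n cultures with DFMO at 100 µM are used only in the last comparison; DFMO (difluoromethylornithine) blocks ornithine decarboxylase, which starts polyamine synthesis. The animals are numbered 1 to 3 and each gave 1 library per group, so the spread is that between 3 mice. The labels do not say how many cultures stand behind a library, what the vehicle was, or the age and sex of the mice.

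TGF-beta binds a receptor kinase pair that phosphorylates the SMAD proteins, and in activated T cells this turns on Foxp3, the defining transcription factor of regulatory T cells. IL-6 binds IL6RA and the shared signalling chain gp130, which activate Janus kinases and, through them, STAT3. With TGF-beta, STAT3 directs the cell to the Th17 program, whose hallmark products are IL-17A and IL-17F.

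Total counts were 8678939 to 10985188 in the iTreg libraries and 8557398 to 11503061 in the Th17n libraries. The groups separated on the first principal component of the 6 libraries, which held 69.98% of the variance. Foxp3, Il17a and Il17f fitted the labels, as given below, and Cd4 stood at 384, 382 and 388 CPM (counts scaled to library size) in iTreg cells of animals 1, 2 and 3, against 403, 374 and 373 CPM in Th17n cells. Cd3e also overlapped between groups, at 152, 142 and 140.4 CPM in iTreg cells and 154, 157 and 137 CPM in Th17n cells. Throughout, per-library values are CPM scaled for library composition and are given in the order of animals 1, 2 and 3. A difference is a log2 fold change of iTreg over Th17n with an approximate standard error (SE). A negative value thus marks a gene that was higher with IL-6. A gene is called where edgeR's quasi-likelihood F test gave it an adjusted p below 0.05.

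Of the 11526 genes, 4301 were called (37.3%), 2121 of them higher in iTreg cells (18.4%) and 2180 lower (18.9%). A log2 fold change of at least 1 was reached by 632 of the higher and 768 of the lower genes, and of at least 5 by 66 and 58. The genes called lower took up 33.67% of all counts in iTreg cells, against 45.41% in Th17n cells. Those called higher took up 19.17% in iTreg cells, against 11.54% in Th17n cells. The directions of these shares follow from the calls, which were made in the same libraries. The split between directions depended on the scaling. With library totals alone, which moved the median log2 fold change of all genes by 0.15, 3184 genes were called higher and 1518 lower. Without animal 1 the total was 2784 and without animal 2 it was 2861. In 5683 genes (49.3%) the 3 iTreg values and the 3 Th17n values did not overlap, so a lack of overlap is common in this comparison. In bulk RNA, fewer cells that make a transcript cannot be told apart from less of it per cell.

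**Figure D1:**
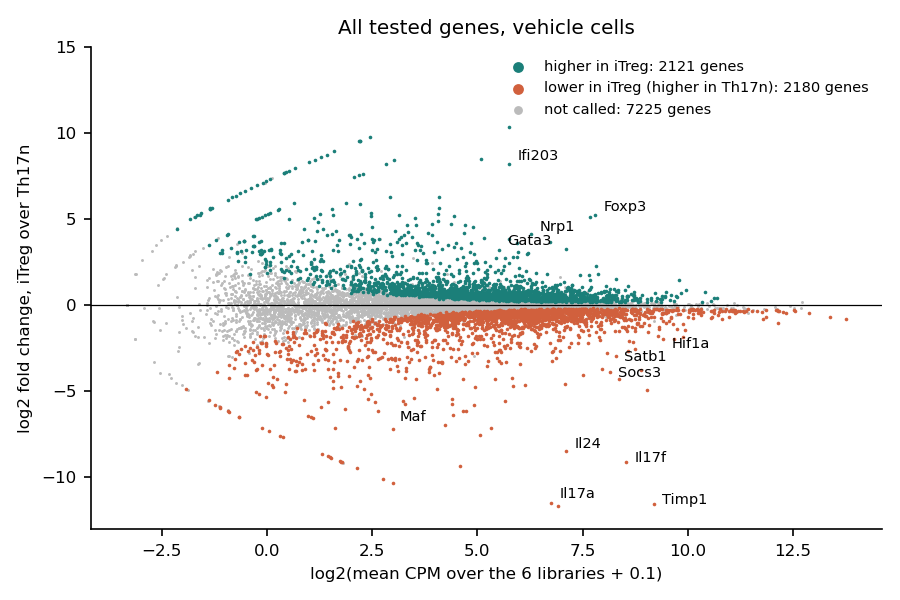
Each point is 1 of the 11526 tested genes, with its mean level over the 6 libraries on the x axis (log2 of CPM + 0.1) and the log2 fold change of iTreg over Th17n on the y axis. The 2121 genes called higher in iTreg lie above 0 and the 2180 called lower lie below it, with Timp1, Il17a, Il17f and Il24 far down among the lower genes and Foxp3 and Nrp1 among the higher ones; straight diagonal runs at the left are genes at or near 0 counts in 1 group.

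Genes listed for the IL-6 pathway were more often lower than higher in iTreg cells, with the feedback inhibitor Socs3 furthest down. Of 25 tested IL-6 receptor, JAK and STAT list members, 13 were lower and 3 higher, or 64.0% called, against 37.3% of all genes. The list's median log2 fold change was -0.41, against 0.02 for all genes. Socs3, which STAT3 induces and which blocks gp130 signalling, stood at 33.5, 33.7 and 41.1 CPM in iTreg cells, against 559, 521 and 503 CPM in Th17n cells. The groups were far apart in every animal, and the log2 fold change was -3.87 ± 0.11 (SE), adjusted p = 5.9e-16. Stat3 itself was at 295, 342 and 389 CPM in iTreg cells and 765, 739 and 724 CPM in Th17n cells, also without overlap (log2 fold change -1.12 ± 0.09, adjusted p = 6.9e-09). On a scale per transcript length, Stat3 averaged 76.8 ± 11.8 TPM in iTreg cells and 146 ± 5.46 TPM in Th17n cells (SD, n = 3 each).

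The receptor chains did not pass the test. Il6ra, the ligand-binding chain, stood at 30.2, 27.6 and 25.2 CPM in iTreg cells and 40.2, 33.2 and 29.4 CPM in Th17n cells, with overlapping groups (adjusted p = 0.196). Il6st, which encodes gp130, stood at 34.6, 33.7 and 28.2 CPM in iTreg cells and 26.2, 31.6 and 23.1 CPM in Th17n cells (adjusted p = 0.294). Of the kinases on the list, Jak1 did not pass the test (log2 fold change -0.045 ± 0.105, adjusted p = 0.773). Jak3 (-1.28 ± 0.08) and Jak2 (-0.66 ± 0.11) were lower in iTreg cells. So were Stat5a (-0.82 ± 0.11), the STAT that IL-2 activates, Ptpn2 (-1.11 ± 0.07), a phosphatase that removes the activating phosphate from JAKs and STATs, the kinase Pim2 (-0.71 ± 0.12) and Il21r (-0.98 ± 0.10), the receptor of IL-21. The inhibitors of the SOCS family moved apart. Socs2 stood at 414, 363 and 339 CPM in iTreg cells, against 72.6, 64.4 and 89.3 CPM in Th17n cells, and rose by a log2 fold change of 2.30 ± 0.30 (adjusted p = 5e-05). Cish, a feedback inhibitor of STAT5, was lower in iTreg cells (log2 fold change -0.44 ± 0.07, adjusted p = 7.48e-05), as Socs3 was. Ptpn11, encoding the phosphatase SHP-2 that docks on gp130, was higher (0.73 ± 0.13).

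Promoter windows are shown for genes that were far lower in iTreg cells and whose window holds a match, 3 of them Th17 products (Il17a, Il17f and Il23r) and 2 others (Socs3 and Tgm1). They were picked after the matches were seen, and the Il21 window, of another gene that was far lower, holds no AGGTCA. Each is the RefSeq window of 300 bases (250 before to 50 after the annotated start, GRCm38.p6), written 5′ to 3′ along the gene. In the Il17a, Il17f and Il23r windows capitals mark AGGTCA or its reverse complement TGACCT, the core element bound by many nuclear receptors. In the Socs3 and Tgm1 windows capitals mark TTCNNNGAA, the STAT palindrome. The Tgm1 window also holds TGACCT and a match to GAAANNGAA, a motif described further below, both left in lower case.
Il17a, chr1:20730655-20730954, + strand: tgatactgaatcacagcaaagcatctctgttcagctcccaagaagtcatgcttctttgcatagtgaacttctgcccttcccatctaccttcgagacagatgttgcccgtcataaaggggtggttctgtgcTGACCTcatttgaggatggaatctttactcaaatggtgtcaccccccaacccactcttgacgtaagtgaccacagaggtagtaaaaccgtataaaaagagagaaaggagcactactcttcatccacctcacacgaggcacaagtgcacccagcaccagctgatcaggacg
Il17f, chr1:20784221-20784520, - strand: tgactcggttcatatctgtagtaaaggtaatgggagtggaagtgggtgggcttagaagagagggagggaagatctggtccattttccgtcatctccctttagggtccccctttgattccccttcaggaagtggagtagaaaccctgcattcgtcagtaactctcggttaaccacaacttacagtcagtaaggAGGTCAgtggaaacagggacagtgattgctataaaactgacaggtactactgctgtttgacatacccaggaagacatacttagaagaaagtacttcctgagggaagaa
Il23r, chr6:67491806-67492105, - strand: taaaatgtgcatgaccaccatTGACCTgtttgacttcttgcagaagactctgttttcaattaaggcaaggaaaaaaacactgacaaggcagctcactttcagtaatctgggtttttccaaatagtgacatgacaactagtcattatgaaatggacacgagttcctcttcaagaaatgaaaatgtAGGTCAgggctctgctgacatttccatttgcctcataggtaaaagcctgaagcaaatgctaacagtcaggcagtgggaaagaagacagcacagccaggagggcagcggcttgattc
Socs3, chr11:117969317-117969616, - strand: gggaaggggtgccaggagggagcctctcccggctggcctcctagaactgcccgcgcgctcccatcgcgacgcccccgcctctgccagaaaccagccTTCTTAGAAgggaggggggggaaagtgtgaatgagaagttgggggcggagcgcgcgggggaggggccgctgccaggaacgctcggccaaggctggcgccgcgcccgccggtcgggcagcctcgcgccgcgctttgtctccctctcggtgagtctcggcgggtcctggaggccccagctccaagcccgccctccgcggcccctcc
Tgm1, chr14:55713443-55713742, - strand: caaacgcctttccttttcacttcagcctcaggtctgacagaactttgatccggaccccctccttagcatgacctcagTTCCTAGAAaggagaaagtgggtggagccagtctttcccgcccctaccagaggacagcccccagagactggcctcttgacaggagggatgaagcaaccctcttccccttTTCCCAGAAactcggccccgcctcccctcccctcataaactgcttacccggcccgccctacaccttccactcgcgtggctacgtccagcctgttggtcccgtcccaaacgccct

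Both strands were searched in the windows of the 8830 tested genes that have one. TTCNNNGAA occurred in 7.02% of them, in 8.76% of the 1633 genes called higher in iTreg cells and in 6.15% of the 1659 called lower. Among genes called with a log2 fold change of at least 1 in size, it occurred in 8.67% of the 450 higher and 7.12% of the 576 lower ones, so it was no more frequent among the lower genes. AGGTCA occurred in 11.9% of all tested windows, in 11.1% of the higher and 13.6% of the lower genes, and in 11.3% and 14.9% at a fold change of that size. TGACTCA, the AP-1 element, occurred in 3.53% of all tested windows, in 3.06% of the higher and 4.4% of the lower genes, and in 3.78% and 7.64% at that size. ACGTG, the core of the hypoxia response element, occurred in 26.5% of all tested windows, in 25.7% of the higher and 29.9% of the lower genes, and in 22.0% and 26.7% at that size. Matches to AGGTCA and ACGTG shared bases in 52 windows, matches to ACGTG and TGACTCA in 9, and every other pair of these motifs in at most 1. A match describes letters in a window and says nothing of binding.

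Both cultures received the same TGF-beta. Of 28 tested receptors, SMADs and targets of the TGF-beta list, 9 were lower in iTreg cells and 2 higher, with a median log2 fold change of -0.23. The share called, 39.3%, is near the 37.3% of all genes. Tgfb3, encoding the TGF-beta 3 ligand, stood at 0.753, 0.736 and 1.26 CPM in iTreg cells, against 54.6, 33.6 and 35.1 CPM in Th17n cells, a log2 fold change of -5.44 ± 0.37 (adjusted p = 4.39e-10). It was near the limit of detection in every iTreg library and moderate in every Th17n library. Smad3, a receptor-activated SMAD, stood at 13.4, 10.4 and 12.4 CPM in iTreg cells, against 59.5, 63.9 and 52.5 CPM in Th17n cells (-2.28 ± 0.15, adjusted p = 2.6e-10), again without overlap. Furin, the protease that processes the TGF-beta precursor, was lower (-1.51 ± 0.23), as were Id2 (-2.38 ± 0.16), which encodes an inhibitor of E proteins, and the co-receptor Tgfbr3 (-1.28 ± 0.18). The 2 higher genes were Tgfbr1, the type I receptor, at 46.3, 37.7 and 36.6 CPM in iTreg cells and 21.1, 18.9 and 18.8 CPM in Th17n cells (1.03 ± 0.20, adjusted p = 0.000428), and Lrrc32 (0.96 ± 0.19), encoding GARP, which holds latent TGF-beta on regulatory T cells. Neither pair overlapped. Tgfbr2 (0.14 ± 0.15, adjusted p = 0.487), Smad4 (-0.21 ± 0.21, adjusted p = 0.457) and the inhibitory Smad7 (0.12 ± 0.23, adjusted p = 0.727) did not pass the test.

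Transcription factors of the Th17 program were lower in iTreg cells as a group. Of 22 tested, 16 were lower and 2 higher (81.8% called, against 37.3% of all genes), with a median log2 fold change of -1.21. The 2 higher, Tbx21 and Jun, were not stable. Only 1 of them was called when animal 1 was left out and 0 when animal 2 or animal 3 was. Rora, encoding the nuclear receptor RORα, stood at 27.5, 41.9 and 43.5 CPM in iTreg cells, against 175, 159.9 and 187 CPM in Th17n cells (-2.20 ± 0.25, adjusted p = 6.81e-06). Maf (c-MAF) was the most changed of the list, at 1.08, 0.276 and 0.758 CPM in iTreg cells and 63.0, 49.2 and 36.6 CPM in Th17n cells (-6.14 ± 0.57, adjusted p = 1.06e-06). Its iTreg level was close to 0 in all 3 animals. AP-1 family members that cooperate with IRF4 were lower too, with log2 fold changes of -1.24 ± 0.12 for Batf, -2.42 ± 0.19 for Fosl2 and -0.69 ± 0.08 for Junb. Also lower were Arid5a (-2.15 ± 0.10), an RNA-binding protein that stabilises Stat3 mRNA, Rbpj (-1.57 ± 0.16), the DNA-binding partner of Notch, Nfil3 (-2.28 ± 0.24) and the aryl hydrocarbon receptor Ahr (-2.02 ± 0.28).

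Factors of regulatory and naive T cells did not move as a block. Of 28 tested, 11 were higher in iTreg cells and 4 lower (53.6% called, against 37.3% of all genes). The median log2 fold change was 0.15. Foxp3 (chrX:7573644-7595245, GRCm38) stood at 516, 397 and 393 CPM in iTreg cells, against 11.1, 11.2 and 11.8 CPM in Th17n cells (5.26 ± 0.36, adjusted p = 1.45e-07). The Th17n level was low but even across animals. Gata3, the Th2 lineage factor that regulatory T cells also use, stood at 59.3, 82.9 and 104 CPM in iTreg cells, against 8.18, 7.43 and 10.9 CPM in Th17n cells (3.21 ± 0.25, adjusted p = 1.07e-08), with every iTreg library several times above every Th17n library. Ikzf2 (Helios) stood at 21.0, 35.3 and 42.5 CPM in iTreg cells, against 7.203, 7.11 and 6.13 CPM in Th17n cells (2.28 ± 0.36, adjusted p = 0.00011). Rel, the NF-κB subunit that acts at Foxp3, was higher (1.35 ± 0.19), as were Nr4a3 (1.82 ± 0.25), an orphan receptor induced by antigen receptor signals, Myb (1.44 ± 0.20), Tox (1.82 ± 0.27) and Tcf7 (0.65 ± 0.12), which encodes TCF-1 of naive and memory-like cells. Nr4a1, the relative of Nr4a3, overlapped between groups. It stood at 173, 234 and 337 CPM in iTreg cells and 118, 132 and 179 CPM in Th17n cells and just missed the threshold (adjusted p = 0.0541, or 7.31e-05 with the animal as a block, within a range of 7.88e-06 to 0.251 over 15 alternatives). Satb1, a chromatin organiser that regulatory T cells repress, went the other way. It stood at 63.0, 70.2 and 84.8 CPM in iTreg cells, against 575, 579 and 501 CPM in Th17n cells (-2.92 ± 0.12, adjusted p = 6.93e-13), and no animal overlapped. Bach2 (-0.78 ± 0.09) and Nfatc2 (-0.68 ± 0.13) were lower as well. Ikzf4 (Eos) did not pass the test (-0.12 ± 0.12, adjusted p = 0.466).

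**Figure D2:**
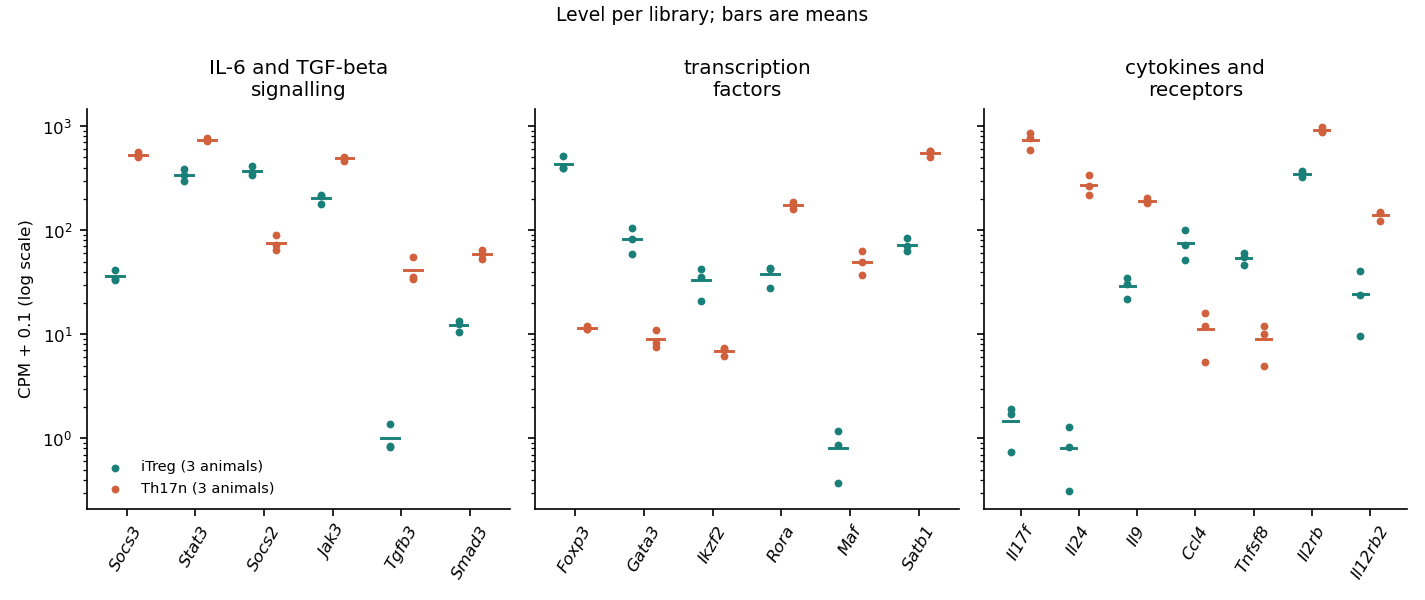
Each dot is the level of 1 gene in 1 library (CPM + 0.1 on a log axis), iTreg to the left and Th17n to the right of each gene, with a bar at the mean of 3 animals. Socs3, Stat3, Jak3, Tgfb3, Smad3, Rora, Maf, Satb1, Il17f, Il24, Il9, Il2rb and Il12rb2 were lower in iTreg cells and Socs2, Foxp3, Gata3, Ikzf2, Ccl4 and Tnfsf8 higher, with no overlap between groups in any of these genes.

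Among cytokines and chemokines, 10 of 32 tested members were lower in iTreg cells and 9 were higher (59.4% called, against 37.3% of all genes). The Th17 cytokines that define the Th17n cells were almost absent from iTreg cells. Il17f stood at 1.83, 0.644 and 1.60 CPM in iTreg cells, against 855, 594 and 771 CPM in Th17n cells (-9.09 ± 0.58, adjusted p = 1.05e-07). Il17a had 2 counts over the 3 iTreg libraries and 6296 over the Th17n libraries, 3507-fold lower in iTreg cells (95% counting interval 971 to 28970). Il17f was the more abundant of the pair in Th17n cells, at 644 ± 121 TPM, against 189 ± 49.3 TPM for Il17a (SD, n = 3). Cytokines of the IL-10 family were also lower or at 0 in iTreg cells. Il24 stood at 0.215, 0.736 and 1.18 CPM in iTreg cells, against 338, 263 and 218 CPM in Th17n cells (-8.49 ± 0.43, adjusted p = 6.05e-09, and -9.21 without animal 3). Il10 had no count in iTreg cells and 66 in Th17n cells, so it was at least 24.5-fold lower by a floor of 3 counts over the group. Il22 also had no count in iTreg cells, against 194 in Th17n cells, at least 72.1-fold lower. Its adjusted p was 0.0656 in the 18-library fit and 5.03e-06 in the fit of these 6 libraries alone, with a range of 3.63e-07 to 0.269 over 15 alternatives. Il9, a cytokine that TGF-beta can induce with other signals, was present in both groups. It stood at 35.0, 21.5 and 30.0 CPM in iTreg cells, against 202, 185 and 184 CPM in Th17n cells (-2.73 ± 0.26, adjusted p = 3.06e-06). Lta, encoding lymphotoxin alpha (-0.93 ± 0.11), and Tnfsf14, encoding LIGHT (-1.76 ± 0.16), were lower too. Il2, the growth factor of activated T cells, stood at 80.8, 47.5 and 87.5 CPM in iTreg cells and 42.9, 68.3 and 66.7 CPM in Th17n cells and did not pass the test (adjusted p = 0.516).

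The cytokine and chemokine genes that were higher in iTreg cells were of another kind. Tnfsf8, encoding the CD30 ligand, stood at 46.5, 55.4 and 59.6 CPM in iTreg cells, against 4.88, 11.9 and 9.90 CPM in Th17n cells (2.58 ± 0.23, adjusted p = 1.77e-07). Ebi3, a subunit of IL-27 and IL-35, was higher (1.23 ± 0.20, adjusted p = 8.96e-05), as was Fasl (1.68 ± 0.38, adjusted p = 0.0013), the death ligand. Ccl4, an inflammatory chemokine, stood at 51.9, 71.5 and 101 CPM in iTreg cells, against 5.37, 16.1 and 11.9 CPM in Th17n cells (2.74 ± 0.47, adjusted p = 0.000533). The groups were apart in every case. Its neighbour Ccl3 rose by 4.64 ± 0.60 (adjusted p = 3.85e-05). Xcl1 (lymphotactin), which attracts cross-presenting dendritic cells, had 280 counts in iTreg cells and none in Th17n cells, at least 83.8-fold higher. Tnfsf11 (RANKL) stood at 75.3, 117 and 199.8 CPM in iTreg cells and 8.18, 11.4 and 26.8 CPM in Th17n cells (3.05 ± 0.92, adjusted p = 0.0205), but its call was lost without animal 1 (adjusted p = 0.159) and without animal 2 (0.0832), the range over 15 alternatives being 9.33e-11 to 0.159.

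Receptor genes were more often lower than higher in iTreg cells. Of 26 tested cytokine receptor genes, 15 were lower and 7 higher (84.6% called, against 37.3% of all genes). The median log2 fold change was -0.49. Without animal 1 only 2 were higher, and without animal 2 only 4. Il23r, whose product receives the IL-23 that sustains Th17 cells, had 1 count in iTreg cells and 173 in Th17n cells, 193-fold lower (95% counting interval 34.1 to 7657). The IL-2 receptor chains were lower in iTreg cells. Il2ra, encoding CD25, stood at 1353, 1086 and 1034 CPM in iTreg cells, against 2026, 1801 and 1767 CPM in Th17n cells (-0.69 ± 0.10, adjusted p = 2.17e-05), abundant in both groups and without overlap. Il2rb stood at 357, 322 and 367 CPM in iTreg cells, against 980.4, 897 and 868 CPM in Th17n cells (-1.39 ± 0.09, adjusted p = 1.19e-10). Il4ra, the IL-4 receptor chain, was lower as well (-1.52 ± 0.10, adjusted p = 1.28e-10). Il12rb2, whose product makes a cell able to answer IL-12, stood at 9.58, 23.5 and 40.3 CPM in iTreg cells, against 148, 148 and 121 CPM in Th17n cells (-2.49 ± 0.38, adjusted p = 0.000207). The iTreg animals differed widely in it, the value was -3.14 without animal 3, and the adjusted p was 0.0805 with the animal as a block in the 6-library fit (range over 15 alternatives 1.54e-07 to 0.0805). Il17ra (-0.57 ± 0.11) and Ifngr2 (-0.64 ± 0.11) were lower by less.

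Molecules commonly used to describe regulatory T cells did not share a direction. Of 23 tested surface and effector molecules, 9 were lower in iTreg cells and 5 higher (60.9% called, against 37.3% of all genes). The median log2 fold change was 0.07. Without animal 2 the lower count was 5, and without animal 3 the higher count was 3. Ctla4, the inhibitory receptor, stood at 189.6, 199 and 234 CPM in iTreg cells, against 499.8, 461 and 558 CPM in Th17n cells (-1.28 ± 0.17, adjusted p = 1.78e-05). Tnfrsf18 (GITR) stood at 452, 617 and 678 CPM in iTreg cells, against 1050.0, 986 and 901 CPM in Th17n cells (-0.75 ± 0.15, adjusted p = 0.00124). Both receptors were lower in every iTreg library than in any Th17n library. Tnfrsf9 (4-1BB, -1.19 ± 0.23), Cd200 (-1.496 ± 0.16) and Lgals1, which encodes galectin-1 (-1.004 ± 0.10), were lower as well. In the other direction, Nrp1 (neuropilin-1), a surface marker of thymic regulatory T cells that TGF-beta can also induce, stood at 187, 147 and 108 CPM in iTreg cells, against 10.4, 6.78 and 7.97 CPM in Th17n cells (4.14 ± 0.43, adjusted p = 7.65e-06). Plagl1, a zinc finger gene of regulatory T cell signatures, was higher (2.81 ± 0.27, adjusted p = 1.07e-07). Gzmb, encoding the protease granzyme B, stood at 21.3, 34.0 and 95.1 CPM in iTreg cells, against 5.37, 7.21 and 4.91 CPM in Th17n cells (3.12 ± 0.59, and 2.13 without animal 3). The 2 groups stayed apart. Pdcd1, encoding PD-1, did not pass the test (0.10 ± 0.14, adjusted p = 0.602).

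Genes of homing and adhesion were called at about the rate of all genes, with 5 of 26 higher and 6 lower, and these counts fell to 1 and 2 without animal 1. Itga4, the alpha 4 integrin chain that binds VCAM-1, stood at 83.6, 95.1 and 96.2 CPM in iTreg cells, against 18.3, 12.9 and 18.3 CPM in Th17n cells (2.47 ± 0.18, adjusted p = 7.97e-10), without overlap. Cxcr5, the receptor that guides cells to B cell follicles, stood at 3.87, 5.06 and 3.20 CPM in iTreg cells, against 23.6, 20.6 and 18.6 CPM in Th17n cells (-2.37 ± 0.28, adjusted p = 1.16e-06).

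The interferon response list was higher in iTreg cells. Of 39 tested members, 30 were higher and 2 lower (82.1% called, against 37.3% of all genes). The median log2 fold change was 1.69, the highest of the 18 pathway lists. Iigp1, an interferon-inducible GTPase that acts on parasite vacuoles, stood at 72.4, 39.5 and 90.7 CPM in iTreg cells, against 0.244, 0.219 and 0.0876 CPM in Th17n cells (8.50 ± 0.79, adjusted p = 1.39e-06, and 7.84 without animal 3). Ifi203, of the interferon-inducible p200 family on chromosome 1, stood at 148, 96.3 and 78.5 CPM in iTreg cells, against 0.244, 0.437 and 0.350 CPM in Th17n cells (8.22 ± 0.50, adjusted p = 4.47e-09). Both were almost absent from Th17n cells, and both belong to families of near-identical genes among which reads can be split. Isg20, an exonuclease, rose by 4.64 ± 0.49 (adjusted p = 1.3e-06) and the ADP-ribosyltransferase gene Parp14 by 1.69 ± 0.14 (adjusted p = 5.27e-09). Xaf1, a proapoptotic interferon target, rose by 2.02 ± 0.14 (adjusted p = 4.64e-10). Mx1, encoding an antiviral GTPase, had 295 counts in iTreg cells and none in Th17n cells, at least 88.3-fold higher. The 2 lower members, named after their values were seen, were Ly6a and Ly6e. Ly6a (Sca-1) stood at 31.5, 33.7 and 129.9 CPM in iTreg cells, against 1028, 889.9 and 720.1 CPM in Th17n cells (-3.75 ± 0.54, adjusted p = 0.000142, and -4.88 without animal 3), and animal 3 had the highest iTreg value. With the animal as a block in the 6-library fit its adjusted p was 0.0761, the highest of 15 alternatives (lowest 3.44e-09). Ly6e was lower (-0.50 ± 0.15), a call lost without animal 1 (adjusted p = 0.163, range over 15 alternatives 2.61e-05 to 0.163).

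Windows of 2 genes higher in iTreg cells are shown with matches to GAAANNGAA, a core of the interferon-stimulated response element, or its reverse complement in capitals. This motif was searched after the expression values were seen, and the 2 genes are shown because their windows hold a match. The windows of Isg20 and Xaf1, described above, hold none. Matches to TTCNNNGAA in the Gbp7 window are not marked.
Serpinb9, chr13:33004291-33004590, + strand: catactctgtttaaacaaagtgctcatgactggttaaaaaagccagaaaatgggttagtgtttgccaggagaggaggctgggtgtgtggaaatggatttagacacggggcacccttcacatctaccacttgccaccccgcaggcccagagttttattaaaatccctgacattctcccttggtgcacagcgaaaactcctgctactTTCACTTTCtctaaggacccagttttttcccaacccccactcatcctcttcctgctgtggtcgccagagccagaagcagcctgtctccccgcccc
Gbp7, chr3:142530086-142530385, + strand: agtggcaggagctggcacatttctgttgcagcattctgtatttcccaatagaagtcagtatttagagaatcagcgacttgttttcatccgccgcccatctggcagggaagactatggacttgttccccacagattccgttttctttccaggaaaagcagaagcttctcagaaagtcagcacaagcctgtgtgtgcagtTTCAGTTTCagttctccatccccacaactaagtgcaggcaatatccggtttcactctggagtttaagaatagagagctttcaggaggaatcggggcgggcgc

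The letters GAAANNGAA were found in 7.17% of the 8830 tested windows. They occurred in 8.82% of the 1633 genes called higher and 7.72% of the 1659 called lower. At a log2 fold change of at least 1 in size, the shares were 12.9% of the 450 higher and 7.12% of the 576 lower genes. In 14 windows the match shared bases with a TTCNNNGAA match. Serpinb9, the inhibitor of granzyme B, stood at 36.7, 37.0 and 52.3 CPM in iTreg cells, against 0.855, 1.64 and 0.963 CPM in Th17n cells (5.18 ± 0.31, adjusted p = 7.97e-10). Gbp7, a guanylate-binding protein gene, stood at 19.4, 14.4 and 14.7 CPM in iTreg cells, against 0.977, 1.31 and 1.05 CPM in Th17n cells (3.85 ± 0.46, adjusted p = 1.87e-06). For both genes each iTreg library exceeded each Th17n library.

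**Figure D3:**
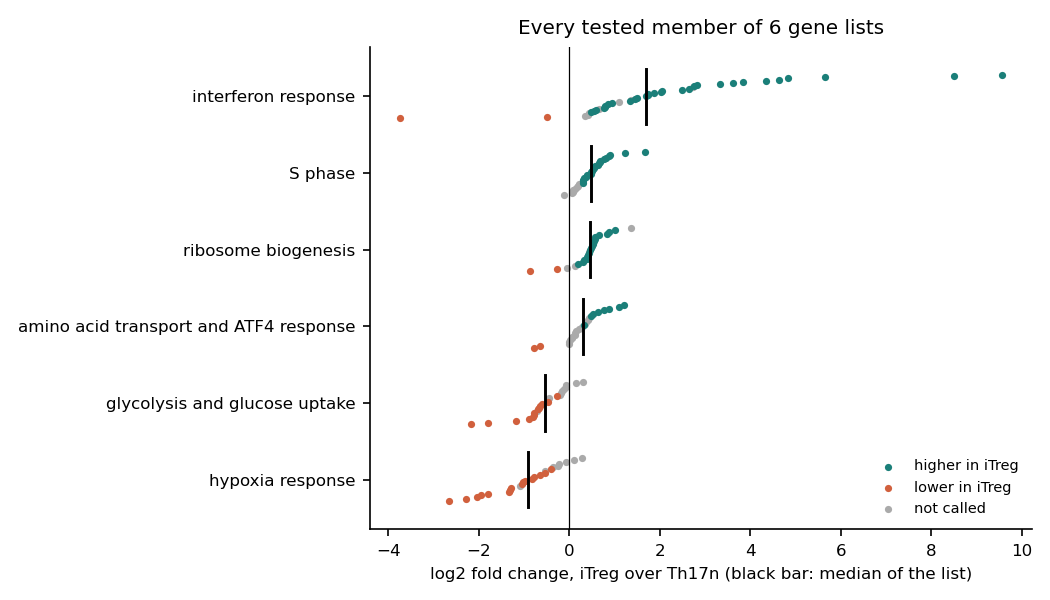
Each point is 1 tested gene of 6 lists, placed by its log2 fold change of iTreg over Th17n and coloured by its call, with a black bar at the median of the list. Interferon response, S phase, ribosome biogenesis and amino acid lists have medians of 1.69, 0.48, 0.46 and 0.30, and the glycolysis and hypoxia lists have medians of -0.54 and -0.91.

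Genes of cytotoxic lymphocytes went in both directions. Nkg7, a granule protein of NK and CD8 T cells, stood at 43.0, 62.1 and 66.3 CPM in iTreg cells, against 1.59, 1.53 and 4.03 CPM in Th17n cells (4.52 ± 0.39, adjusted p = 2.72e-07). Eomes, the T-box factor of those cells, had 152 counts in iTreg cells and 3 in Th17n cells, a ratio of 45.5 (95% counting interval 15.3 to 223). Prf1, encoding the pore-forming perforin, was lower, with 2 counts in iTreg cells and 24 in Th17n cells, 13.4-fold lower (95% counting interval 3.32 to 116.7), with an adjusted p of 0.0198 that was 0.0991 without animal 1 and 0.092 without animal 2 (lowest 0.00875 over the 11 alternatives that tested it). The CD8 T cell list holds 8 markers, Nkg7, Eomes and Prf1 among them. In it 3 of 6 tested members were higher in iTreg cells and 1 lower (66.7% called, against 37.3% of all genes). Its summed level was 65.0 to 96.4 CPM in iTreg cells and 16.9 to 23.6 CPM in Th17n cells. Without Nkg7 and Eomes, both higher in iTreg cells, the other 6 markers summed to 19.6, 20.4 and 21.2 CPM in iTreg cells. In Th17n cells they summed to 15.3, 22.1 and 17.7 CPM, with overlapping groups. Leaving out higher members lowers the iTreg sum by construction, and most of what remains is Cd8b1. Of the defining chains, Cd8b1 stood at 14.4, 16.0 and 17.1 CPM in iTreg cells and 13.7, 20.4 and 14.4 CPM in Th17n cells and did not pass the test (-0.03 ± 0.22, adjusted p = 0.934). Cd8a was at 2.69, 3.77 and 2.95 CPM in iTreg cells and 0, 0.328 and 0.350 CPM in Th17n cells (3.65 ± 0.75, adjusted p = 0.000633), and Gzmk was at 0 in all 6 libraries. The part of CD8 cells in these differences was not tested. Of the other cell types, B cell markers summed to 14.99 to 16.51 CPM in iTreg cells and 10.33 to 18.04 CPM in Th17n cells. NK and innate lymphoid markers summed to 0.919 to 4.196 CPM in iTreg cells and 7.57 to 8.96 CPM in Th17n cells, with Ncr1, Klrb1c and Tyrobp at 0. Myeloid markers summed to 148 to 194 CPM in iTreg cells and 125 to 145 CPM in Th17n cells, almost all from Cst3 and Cd74, and 7 of 13, Lyz2 and Itgax among them, were at 0. Cd74 was higher in iTreg cells, whereas Cst3 and Cd68 were lower.

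Further genes among the 15 largest increases code for proteins of varied roles. Lad1, encoding the basement membrane protein ladinin, stood at 346, 416 and 425 CPM in iTreg cells, against 7.57, 14.8 and 12.1 CPM in Th17n cells (5.10 ± 0.51, adjusted p = 5.91e-06). Tead1, the DNA-binding partner of the Hippo effector YAP, rose by 4.75 ± 0.48 (5.79 without animal 2). Tbc1d4, a regulator of glucose transporter trafficking, rose by 4.71 ± 0.55, with 4.10 without animal 2 and 6.34 without animal 3. Acsl6, an acyl-CoA synthetase gene, stood at 23.8, 13.98 and 15.9 CPM in iTreg cells, against 0.977, 0.546 and 1.49 CPM in Th17n cells (4.10 ± 0.47, adjusted p = 2.18e-06). No group overlapped the other in Lad1 or Acsl6. Fsd1l rose by 4.20 ± 0.26 and Clec2i, of a lectin family clustered with NK receptor genes, by 3.95 ± 0.33. Samd9l, an interferon-inducible antiviral gene, rose by 4.11 ± 0.71 (adjusted p = 0.000429), a call lost without animal 1 (adjusted p = 0.0517, the highest of 15 alternatives, the lowest being 3.47e-08).

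The 15 largest decreases in iTreg cells hold T cell cytokines, such as Il17f and Il24 above and Il21, and other genes of varied roles. Timp1, an inhibitor of matrix metalloproteinases, stood at 0.430, 0.184 and 0.505 CPM in iTreg cells, against 1365, 1097 and 1035 CPM in Th17n cells (-11.56 ± 0.56, adjusted p = 6.05e-09). Lbp, the lipopolysaccharide-binding acute-phase protein of liver, stood at 0.430, 0 and 0.421 CPM in iTreg cells, against 43.2, 38.0 and 29.9 CPM in Th17n cells (-6.98 ± 0.59, and -6.35 to -7.59 on leaving out animal 2 or animal 3). Serpinf1, encoding the anti-angiogenic PEDF, stood at 0.861, 0.736 and 0.169 CPM in iTreg cells, against 75.8, 83.3 and 78.4 CPM in Th17n cells (-7.10 ± 0.37, adjusted p = 4.25e-10). All 3 were at or near 0 in every iTreg library. Tgm1, the transglutaminase of the skin barrier, stood at 0.323, 1.10 and 0.674 CPM in iTreg cells, against 73.1, 45.6 and 38.3 CPM in Th17n cells (-6.17 ± 0.36, and -5.54 without animal 1). Pdpn, encoding podoplanin, a surface glycoprotein also found on Th17 cells, stood at 0.323, 1.75 and 1.01 CPM in iTreg cells, against 55.8, 67.5 and 54.2 CPM in Th17n cells (-5.79 ± 0.64, adjusted p = 1.23e-05). These too were low in all iTreg animals. Enpp2 (autotaxin) had 3 counts in iTreg cells and 436 in Th17n cells, 162-fold lower (95% counting interval 55.0 to 788). Il21, the autocrine Th17 growth cytokine, had 2 counts in iTreg cells and 6931 in Th17n cells. Gcnt2, a glycan-branching enzyme, was lower, with a log2 fold change of -6.35 ± 0.65, -5.75 without animal 1 and -9.47 without animal 2. The kinase gene Alpk2 was lower (-5.76 ± 0.46). H2-Q10, a class Ib MHC gene with close relatives among which reads can be split, was lower (-7.55 ± 0.42, and -6.94 without animal 1).

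Genes of the hypoxia response and of glycolysis were in large part lower in iTreg cells. Among tested hypoxia and glycolysis members, 66.7% and 54.2% were called, against 37.3% of all genes. Of 24 tested hypoxia genes, 16 were lower and 0 higher by edgeR (0 also at an unadjusted p below 0.05, by DESeq2 and by limma), with a median log2 fold change of -0.91. Hif1a, encoding the oxygen-regulated subunit, stood at 212, 289 and 330.0 CPM in iTreg cells, against 1100.0, 1049 and 1079 CPM in Th17n cells (-1.96 ± 0.13, adjusted p = 2.01e-09). Egln3, a prolyl hydroxylase that HIF induces, stood at 112, 105 and 97.2 CPM in iTreg cells, against 721, 646 and 622 CPM in Th17n cells (-2.66 ± 0.26, adjusted p = 3.46e-06). The 2 groups were well apart. Ero1l, an oxidase of disulfide formation, was lower (-1.80 ± 0.15), as was Bnip3l (-1.31 ± 0.14), a mitophagy receptor. Of 24 tested glycolysis and glucose uptake genes, 13 were lower and 0 higher by edgeR (0 at an unadjusted p below 0.05 and by DESeq2, 1 by limma on log2(TPM + 1), 2 with library totals alone), with a median of -0.54. Slc2a3, the neuronal-type glucose transporter GLUT3, stood at 71.1, 64.5 and 81.0 CPM in iTreg cells, against 326, 336 and 309 CPM in Th17n cells (-2.16 ± 0.27, adjusted p = 2.83e-05). Aldoc (aldolase C) (-1.79 ± 0.20), Pfkp (-0.89 ± 0.13) and Pgam1 (-0.79 ± 0.09) were lower. Gapdh, at 8468, 8136 and 8073 CPM in iTreg cells and 13380.0, 13050.0 and 12980.0 CPM in Th17n cells, was lower as well (-0.68 ± 0.09, adjusted p = 2.2e-06).

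Genes of DNA replication and ribosome biogenesis were for the most part higher in iTreg cells. Among tested S phase and ribosome biogenesis members, 73.3% and 84.0% were called, against 37.3% of all genes. Of 30 tested S phase genes, 22 were higher in iTreg cells and 0 lower by edgeR (0 also at an unadjusted p below 0.05, by DESeq2 and by limma), with a median log2 fold change of 0.48; without animal 1, 14 were higher. Rrm2, the regulated subunit of ribonucleotide reductase, stood at 524, 368 and 369 CPM in iTreg cells, against 218, 214 and 254 CPM in Th17n cells (0.88 ± 0.11, adjusted p = 1.73e-06). Mcm5, a subunit of the replicative helicase, rose by 0.56 ± 0.08, Cdc6 by 0.77 ± 0.10 and the polymerase gene Pola1 by 0.67 ± 0.10. These differences were below 1 on the log2 scale. Of 30 tested G2 and M phase genes, 5 were higher and 1 lower, and with library totals alone 14 were higher. The share of G2 and M phase genes called, 20.0%, is below the 37.3% of all genes. Of 25 tested ribosome biogenesis genes, 19 were higher and 2 lower, with a median of 0.46. Nolc1, a nucleolar chaperone, stood at 241, 204 and 216 CPM in iTreg cells, against 113, 122 and 124 CPM in Th17n cells (0.88 ± 0.09, adjusted p = 1.91e-07). Nop58 rose by 0.54 ± 0.08 and Dkc1, the pseudouridine synthase dyskerin, by 0.57 ± 0.09. The 2 lower genes were Rrp12 (-0.88 ± 0.13) and Npm1 (-0.27 ± 0.07), Npm1 having no call when animal 1 was left out (adjusted p = 0.0522) or library totals alone were used (0.119; range over 15 alternatives 0.000814 to 0.236).

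Amino acid transport and ATF4 response genes counted 8 higher and 2 lower of 24 tested, or 13 higher with library totals alone. The share called, 41.7%, is near that of all genes. Phgdh, the first enzyme of serine synthesis, stood at 1266, 1309 and 1262 CPM in iTreg cells, against 611, 720.4 and 764 CPM in Th17n cells (0.87 ± 0.09, adjusted p = 8.96e-08), without overlap. Slc7a5, the large neutral amino acid transporter, rose by 1.10 ± 0.15 and the glycine transporter gene Slc6a9 by 1.21 ± 0.29. Pycr1 (-0.79 ± 0.19), of proline synthesis, and Ddit3 (-0.65 ± 0.17), encoding CHOP, were the 2 lower genes.

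**Figure D4:**
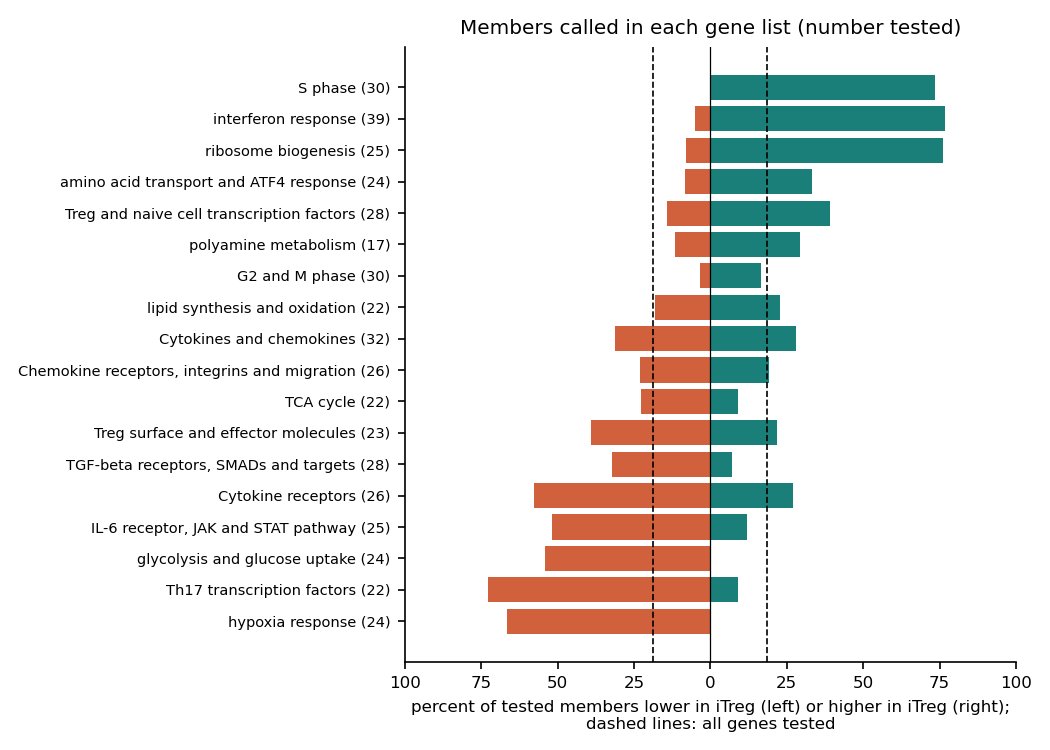
For each gene list, the bar to the right gives the percent of tested members called higher in iTreg and the bar to the left the percent called lower, with the number tested in parentheses; dashed lines mark 18.4% and 18.9%, the shares over all tested genes. S phase, interferon response and ribosome biogenesis reach furthest to the right, and Th17 transcription factors and hypoxia response furthest to the left.

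Of 11 tested CD4 T cell markers, 5 were lower in iTreg cells and 0 higher by edgeR (0 also at an unadjusted p below 0.05, by DESeq2 and by limma); 3 were lower with library totals alone, without animal 1 or without animal 2, and 2 by limma. Their summed level was 3077 to 3160 CPM in iTreg cells and 3793 to 4025 CPM in Th17n cells. The share of these markers called, 45.5%, is near the 37.3% of all genes. Cd5, a negative regulator of receptor signals, stood at 259, 231 and 237 CPM in iTreg cells, against 531, 629 and 565 CPM in Th17n cells (-1.25 ± 0.08, adjusted p = 1.28e-10). Cd28, the co-stimulatory receptor that the anti-CD28 antibody engages, was lower (-0.86 ± 0.11, adjusted p = 1.73e-06). Cd5 did not overlap between groups.

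With DFMO, the same comparison called 2848 genes (24.7%), 1344 higher in iTreg cells and 1504 lower. The difference between the 2 settings was tested gene by gene, and 1396 genes passed (12.1%), with a positive difference of vehicle minus DFMO in 628 (5.45%) and a negative one in 768 (6.66%); without animal 1 there were 388 and without animal 2 there were 277. Of 206 tested members of the 8 main lists, 16 passed with a positive difference and 27 with a negative one. The vehicle and DFMO libraries come from the same 3 animals. Socs3 had a log2 fold change of -3.87 ± 0.11 with vehicle and -2.50 ± 0.11 with DFMO, where it averaged 41.5 ± 6.70 CPM in iTreg cells and 235 ± 17.4 CPM in Th17n cells (SD, n = 3 each). Foxp3 had 5.26 ± 0.36 with vehicle and 2.08 ± 0.30 with DFMO, where it averaged 411 ± 118 CPM in iTreg cells and 97.2 ± 19.5 CPM in Th17n cells. In both genes the gap between the cell types was narrower with DFMO. Tnfrsf9 changed its direction, at -1.19 ± 0.23 with vehicle and 1.55 ± 0.24 with DFMO (adjusted p of the DFMO comparison 0.000347). Stat5a likewise had -0.82 ± 0.11 with vehicle and 0.45 ± 0.11 with DFMO. The gap was wider with DFMO in Ctla4, at -1.28 ± 0.17 with vehicle and -3.37 ± 0.18 with DFMO, and in Selplg, at -0.12 ± 0.07 and 0.86 ± 0.08. Odc1, which encodes the DFMO target and was named after its value was seen, did not pass the vehicle comparison (-0.04 ± 0.14, adjusted p = 0.86).

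**Figure D5:**
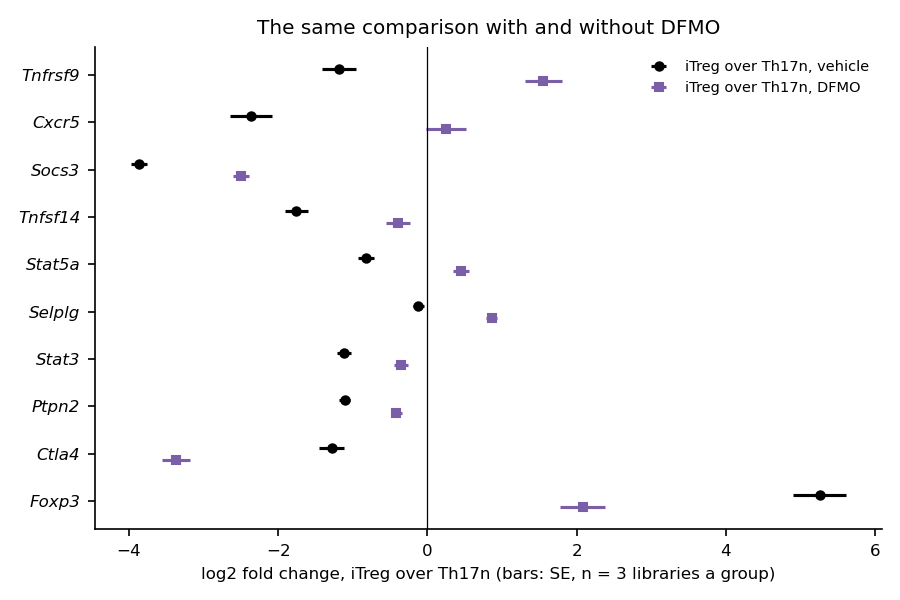
For the 10 genes of the 8 main lists with the smallest p for the difference between the settings, the log2 fold change of iTreg over Th17n is shown with vehicle (black circles) and with DFMO (purple squares), bars giving the SE with 3 libraries a group. Socs3 lies at -3.87 with vehicle and -2.50 with DFMO, Foxp3 at 5.26 and 2.08, and Ctla4 at -1.28 and -3.37.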

How the data were processed

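RNA-seq expected counts and TPM per gene were deposited for each of 2 runs per library. Per the submitters' processing notes the tools were Bowtie2 and RSEM and the build GRCm38.p3; no version is named in these notes. Paired reads of 75 bp were used, per the labels. The table lists 20817 genes, which hold 72.4 to 75.1% of the TPM total of the 6 libraries, so CPM here relates to the counts on listed genes only. The deposited expected counts of both runs were summed and rounded. The deposited TPM were averaged over runs and serve as a scale per transcript length and in an alternative test.

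Libraries were scaled by TMM and filtered with filterByExpr in edgeR 4.0.16 (R 4.3.3). One robust quasi-likelihood fit of 6 groups and 18 libraries, without a block, gave all tests, with p-values adjusted by Benjamini-Hochberg over 11526 genes. The SE was derived from the test, as the absolute log2 fold change over the square root of F, and is approximate. The code was tested on simulated data. Alternatives, 15 in all, included DESeq2 1.42.0, limma 3.58.1, other scalings and filters, the animal as a block, single runs and leaving out each animal. The labels' animal numbers pair the libraries: deviations of the same animal correlated at 0.095 to 0.158, those of different animals at -0.086 to -0.016.

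Genes were named by a rule: the 15 largest called changes each way (mean log2 CPM of at least 2, same sign in 3 animals, no predicted genes, histones or receptor segments), members of 8 main lists, up to 6 members with the smallest p of each other list, and the 10 main-list genes with the smallest p for the DFMO difference. Not every gene so named is described. Of 25 lists, 8 are main lists. The comparison, its lists and rules were chosen with earlier results of these data known. Counting intervals (95%) and floors (3 counts over a group) cover counting error only. Promoter windows are from RefSeq (GRCm38.p6), found for 8830 of the tested genes; 1828 have several windows, and the first listed was used. Gene positions are from GENCODE M21. Some genes of these lists are not reported here.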

Additional observations from a re-analysis of the deposited data

Results flagged for a closer look

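The comparison of iTreg with Th17n cells differed between vehicle and DFMO for 1396 of 11526 genes (12.1%), by edgeR's test of the difference itself. Of 206 tested members of the main lists, 43 passed, and the 10 with the smallest p are given here. Each difference below is the vehicle log2 fold change minus the DFMO one, with its SE and adjusted p. A negative value means that iTreg cells were lower relative to Th17n cells with vehicle than with DFMO. Of the IL-6 pathway, 10 of 25 tested members passed, 7 with a negative and 3 with a positive difference. Over all genes 6.66% passed with a negative and 5.45% with a positive difference. The differences were -1.37 ± 0.14 for Socs3 (adjusted p = 5.69e-06), -1.28 ± 0.15 for Stat5a (2.6e-05), -0.69 ± 0.10 for Ptpn2 (0.000218) and -0.76 ± 0.13 for Stat3 (0.000751). The Stat3 call was not kept in every alternative, with an adjusted p of 2.4e-06 to 0.056 over 13 of them. The positive ones were 0.89 ± 0.19 for Ptpn11 (0.00354), 1.61 ± 0.40 for Socs2 (0.0209) and 0.84 ± 0.26 for Il6st (0.0369). These 3 calls depended on single animals: adjusted p reached 0.0886 for Ptpn11 without animal 1, 0.175 for Socs2 without animal 2 and 0.175 for Il6st without animal 2 (lowest over 13 alternatives 0.000504, 0.00406 and 0.00508). Foxp3 had 3.18 ± 0.44 (0.000751), a value of 3.13 with an adjusted p of 0.0741 without animal 1 (range over 13 alternatives 1.37e-06 to 0.0741). Ctla4 had 2.09 ± 0.24 (6.98e-05) and was lower in iTreg cells in both settings. Tnfrsf9, encoding 4-1BB, had -2.74 ± 0.34 (0.000262), with -2.75 and an adjusted p of 0.05 without animal 2 (range over 13 alternatives 3.28e-13 to 0.05). Tnfsf14 had -1.36 ± 0.22 (0.00054). Among homing genes, Cxcr5 had -2.61 ± 0.39 (0.000233). Selplg, encoding the selectin ligand PSGL-1, had -0.98 ± 0.11 (6.65e-06): it was not called with vehicle (-0.12 ± 0.07) and was higher in iTreg cells with DFMO (0.86 ± 0.08). No group of these samples has more than 3 libraries, so single libraries were not screened for outlying values.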

How the results depend on the processing

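Of 152 genes followed through the alternatives, 137 were called, and 127 of these kept both direction and call under all 15 alternatives. The total of 4301 calls was 2784 to 3493 on leaving out 1 animal. The count higher in iTreg cells was 1330 to 1689 on leaving out 1 animal, 3184 with library totals alone, 3200 with limma on log2(TPM + 1) and 3194 with limma on log2(TPM + 0.1). The count lower was 1373 to 1804 on leaving out 1 animal, 1380 with log2(TPM + 1) and 1350 with log2(TPM + 0.1). These unscaled settings moved the median of all genes by 0.15, 0.14 and 0.18 on the log2 scale. The count of genes that differed between vehicle and DFMO, 1396, was 277 to 1177 on leaving out 1 animal, 2563 with log2(TPM + 1) and 2463 with log2(TPM + 0.1). Fits that leave out an animal hold fewer libraries. For the DFMO difference they gave 388, 277 and 1177 genes without animals 1, 2 and 3. The cause of these changes was not tested.

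With the animal as a replicate block, 4575 genes were called in the fit of 18 libraries and 4436 in the fit of 6, against 4301 without it. Apart from the genes named above with a block value, no call among the followed genes was lost. The DFMO difference was called for 1848 genes with the block.

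Direction turned only in genes or marker sums that were not called. With library totals alone, log2(TPM + 1) and log2(TPM + 0.1), the log2 fold changes became 0.031, 0.065 and 0.067 for Ikzf4, 0.028, 0.063 and 0.063 for Selplg, 0.11, 0.15 and 0.15 for Odc1, 0.11, 0.15 and 0.15 for Cd3e and 0.122, 0.154 and 0.167 for Cd8b1. Cd8b1 ranged over -0.168 to 0.195 on leaving out 1 animal and was 0.028 in run 2 alone. On leaving out 1 animal, Odc1 ranged over -0.089 to 0.010, Cd3e over -0.079 to 0.042 and Cd4 over -0.020 to 0.054, and Cd4 was -0.001 in run 1 alone. The summed markers, as iTreg minus Th17n CPM, ranged over -0.209 to 4.405 for B cells, -0.105 to 0.0134 for gamma delta T cells and -0.714 to 0.445 for erythroid cells and platelets on leaving out 1 animal. In run 2 alone they were 0.0646 for gamma delta T cells and 0.586 for erythroid cells and platelets. Depth limits the genes with 0 to 3 counts in a group, whose ratios carry wide intervals. With 3 libraries against 3 an exact permutation test of 1 value cannot go below 0.1, so no marker sum can pass.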

Other observations

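Genes of central metabolism outside glycolysis were called at about the rate of all genes (37.3%), with 31.8% of TCA cycle genes, 40.9% of lipid genes and 41.2% of polyamine genes called. Of 22 tested TCA cycle genes, 5 were lower in iTreg cells and 2 higher, against 5 higher with library totals alone. Cs, encoding citrate synthase, stood at 390.5, 411 and 427 CPM in iTreg cells, against 625, 602 and 636 CPM in Th17n cells (-0.60 ± 0.07, adjusted p = 5.96e-07), and Suclg1 was lower (-0.69 ± 0.08). Fh1, encoding fumarase, was higher (0.54 ± 0.08, adjusted p = 3.25e-05). Of 22 tested lipid genes, 5 were higher and 4 lower; without animal 2 only 1 was higher. Fasn, the fatty acid synthase, stood at 282, 192 and 163 CPM in iTreg cells, against 118, 100.5 and 135 CPM in Th17n cells (0.85 ± 0.18, adjusted p = 0.00165), whereas Acly, which makes its acetyl-CoA, was lower (-0.67 ± 0.11, adjusted p = 9.36e-05).

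Of 17 tested polyamine genes, 5 were higher and 2 lower, against 2 higher without animal 1 and 4 lower with the animal as a block in the 6-library fit. Smox, the spermine oxidase that breaks polyamines down, stood at 33.5, 33.4 and 36.4 CPM in iTreg cells, against 201, 208 and 234 CPM in Th17n cells (-2.64 ± 0.23, adjusted p = 6.47e-07), with no overlap. Mat2a, which makes the methyl donor that polyamine synthesis draws on, stood at 327, 199 and 203 CPM in iTreg cells, against 119.8, 100.0 and 131 CPM in Th17n cells (1.05 ± 0.15, adjusted p = 2.77e-05). Of 4 tested B cell markers, 1 was higher in iTreg cells and 1 lower, and of 3 tested myeloid markers, 1 was higher and 2 lower. The B lineage factor Ebf1 stood at 0, 0.276 and 0.253 CPM in iTreg cells and 4.64, 8.53 and 3.50 CPM in Th17n cells (-4.80 ± 0.52). The higher myeloid marker was Cd74, the MHC class II chaperone, at 59.1, 94.8 and 91.8 CPM in iTreg cells and 16.2, 18.1 and 16.9 CPM in Th17n cells (2.26 ± 0.17, adjusted p = 1.2e-09). The lower ones were Cd68 (log2 fold change -2.68) and Cst3 (-0.275), whose adjusted p ranged over 0.0184 to 0.496 in 15 alternatives for Cst3.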
